A study of Mus musculus with 57 samples.

Results

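Of 3150 H3K27me3 regions listed in mouse epiblast stem cells (EpiSCs) after 72 h of the Wnt agonist CHIR99021, 851 (27%, 95% Wilson interval 25.5 to 28.6) overlapped no H3K27me3 region of unstimulated cells and no input region. These new regions were chosen by peak position, with 1 bp as the smallest overlap: a region was kept if it met no region in either of the 2 replicates at 0 h and none in the 2 input lists. Their absence at 0 h is therefore the way they were chosen and not a finding. Of the other 72 h regions, 2107 overlapped a 0 h replicate and no input region, 1488 of them both replicates, and 192 overlapped an input region.

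The study followed chromatin at early Wnt stimulation in EpiSCs, a cell type derived from the epiblast of E6.0 embryos, and in whole embryos. The H3K27me3, H3K4me3 and Ring1b libraries used here, and 4 of the H3K27ac libraries, came from Wnt3KO EpiSCs, which lack the ligand Wnt3. These cells were unstimulated (0 h), held in 3 µM CHIR99021 for 6, 12 or 72 h, or, for H3K27me3 and Ring1b, given 125 ng/ml Wnt3a protein for 5 h. Wild-type EpiSCs gave H3K27ac at 0 h and after 24 h of CHIR99021 and ATAC-seq without stimulation and after 48 h, and wild-type embryos gave ATAC-seq at E6.0, at E7.2 and from the posterior part at E7.5. All EpiSCs were grown with Fgf-basic, Activin A and the Wnt inhibitor IWP2, and IWP2 was withdrawn at stimulation, so time in CHIR99021 was also time without IWP2. The labels do not say whether the Wnt3KO cells were 1 clone. Groups with 2 libraries were unstimulated H3K27me3 and Ring1b, wild-type H3K27ac after 24 h, and the E6.0 and E7.2 embryos; each other group had 1. Nothing in the labels ties the libraries of a pair to separate cultures or litters, so the spread between them may be technical.

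H3K27me3, trimethylation of lysine 27 of histone H3, is set by Polycomb repressive complex 2 and marks silent developmental genes. Ring1b is the ubiquitin ligase of Polycomb repressive complex 1, which is often found at the same places. H3K4me3 marks promoters and, together with H3K27me3, the promoters called bivalent, whereas H3K27ac marks active promoters and enhancers and is placed on the same lysine residue as H3K27me3, so that a single histone tail cannot carry both. ATAC-seq lists open chromatin.

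The 30 lists used held between 253 and 72433 regions, and the read depth behind them is unknown. A region absent from a list was below the peak caller's threshold there, which does not show that the mark was absent. In these bulk samples, fewer cells carrying a mark and less signal per cell cannot be told apart. The 6 lists of H3K27me3 held 4332 and 6236 regions in the 0 h replicates, 2572 at 6 h, 3056 at 12 h, 3150 at 72 h and 1012 after Wnt3a. Wilson intervals cover counting error only, and neighbouring regions are not independent. The files hold mm9 coordinates and no gene names, and no mm9 gene annotation was used here, so regions are given by position and the labelled cell type was not checked against its marker genes.

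The new regions were short, and their enrichment was moderate. Their median length was 357 bp (quartiles 312 and 449.5), against 413 bp (quartiles 334 and 566) for the 72 h regions also listed at 0 h. The longest new region measured 1510 bp, and 6 of the 851 reached 1 kb, against 78 of the 2107. Of the new regions, 153 had the shortest length in the list, 300 bp. Together the new regions covered 348.6 kb and the regions also listed at 0 h 1027.7 kb. Fold enrichment at the summit, the authors' value for a peak over its local background, had a median of 5.25 (range 3.43 to 8.71) in the new regions and 5.23 (3.44 to 12.6) in those also listed at 0 h. The median −log10 q, the authors' significance after correction for multiple tests, was 5.47 against 5.96. Ranked by fold over all 3150 regions of the 72 h list, the top 100 held 4 new regions, 25 also listed at 0 h and 71 that overlap input. Among the 391 of the top 500 that lay outside input, 76 (19.4%) were new, and among the 869 of the top 1000, 231 (26.6%) were, beside 28.8% of all 2958 regions outside input. Ranked by −log10 q, the new regions were 62 of 373 outside input in the top 500 (16.6%) and 172 of 853 in the top 1000 (20.2%).

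**Figure D1:**
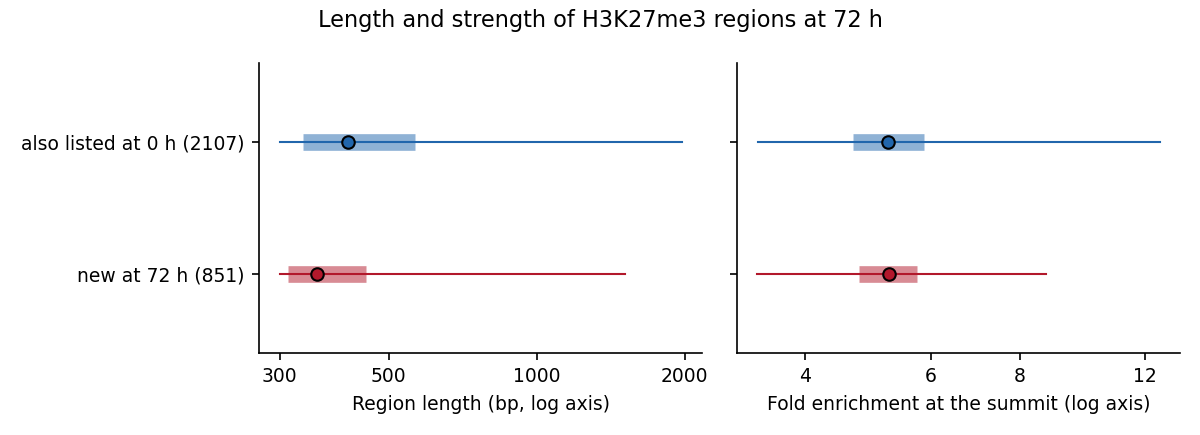
Length in bp (left) and fold enrichment at the summit (right), both on log axes, of the 851 new regions and the 2107 regions also listed at 0 h. Points are medians, thick bars run from the lower to the upper quartile and thin lines span the range; the median lengths are 357 and 413 bp, and the median folds 5.25 and 5.23.

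The same rule applied to the other H3K27me3 lists gave smaller shares. At 6 h 497 of 2572 regions (19.3%) met no 0 h or input region, at 12 h 651 of 3056 (21.3%), and after Wnt3a 29 of 1012 (2.87%). As a measure of how far 2 unstimulated libraries differ, 16.4% of the regions of 0 h replicate 1 met neither replicate 2 nor an input region, and 47.7% of the regions of replicate 2, the longer list, met neither replicate 1 nor an input. Set against replicate 2 alone, 29.9% of the 72 h regions were unmatched, and set against replicate 1 alone 43.8% were. The 72 h list shares its processing folder, as read from the peak names, with replicate 2 and not with replicate 1.

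The 3 new regions closest to a 0 h region lay at chr13:13875272-13875620 (4.74-fold) and chr7:116312262-116312759 (7.25-fold), both touching one with a gap of 0 bp, and at chr7:31120931-31121231 (4.28-fold), 4 bp away. The 3 regions that missed inclusion most narrowly overlapped a 0 h region by 1, 3 and 6 bp, at chr7:52665866-52666208 (4.68-fold), chr4:22405991-22406402 (6.05-fold) and chr5:24605916-24606215 (5.27-fold).

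The 10 new regions with the highest fold had unlike surroundings. The highest, chr2:30532035-30532569 (535 bp, 8.71-fold), lay 124.5 kb from the nearest 0 h H3K27me3 region and met a weak H3K4me3 region in all 4 H3K4me3 lists, at 6.36-fold at 0 h and 7.19-fold at 72 h. The second, chr11:20441356-20441786 (8.62-fold), met no region of any other mark or of ATAC-seq. At chr8:96335990-96336728 (8.14-fold), H3K4me3 of 30.2-fold was listed at 0 h and at no later time, and ATAC of 4.27-fold was listed in unstimulated EpiSCs and not at 48 h. At chr17:6488888-6489208 (7.90-fold), H3K4me3 was listed at every time, at 21.3-fold at 0 h and 9.26-fold at 72 h. That region lay 12.9 kb from an input region.

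Of the remaining 6, chr11:75468519-75469166 (7.80-fold) met ATAC in unstimulated EpiSCs (11.2-fold) but not at 48 h, and no H3K4me3. It belongs to the largest group of new regions, 4 within 4.89 kb. The region chr11:66338574-66339144 (7.55-fold) met H3K4me3 at every time (22.4-fold at 0 h, 10.1-fold at 72 h) and ATAC in unstimulated EpiSCs (16.2-fold) but not at 48 h. The regions chr14:124591858-124592225 (7.54-fold) and chr17:72952998-72953752 (7.44-fold) met H3K4me3 and ATAC in every H3K4me3 and ATAC list. At chr17:31193858-31194186 (7.32-fold) both E6.0 embryo lists had ATAC, and no EpiSC list did. The last, chr16:67619131-67619474 (7.54-fold), was listed for H3K27me3 at 6 h and 12 h too and is described below. Folds of different lists come from different libraries and were not compared with each other.

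Few of the new regions were listed in any other H3K27me3 library. At 6 h 19 of 851 were (2.23%, 1.43 to 3.46), where 29.7% of all 72 h regions and 39.6% of those also listed at 0 h were. At 12 h the count was 41 (4.82%, 3.57 to 6.47), against 33.8% of all 72 h regions and 45.2% of those also listed at 0 h. After 5 h of Wnt3a 3 were listed (0.353%, 0.120 to 1.03), against 19.1% and 20.4%. In all, 53 new regions (6.23%) were in at least 1 of these 3 lists, where 47.7% of all 72 h regions were, and 798 were in none. Both 6 h and 12 h held 10 of them (1.18%), against 21.2% of all 72 h regions.

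These shares depended on 0 h replicate 2. When new regions were defined without it, 1380 were found, of which 8.48% were listed at 6 h and 13.2% at 12 h, still below the shares of the whole list. The new regions were chosen for lacking H3K27me3 at 0 h, and those also listed at 0 h for having it. Of the 6 h and 12 h lists, only 19.3% and 21.3% of regions met no 0 h or input region. Lower shares at the new regions are therefore in part built into the rule. They were also seen among the stronger and longer regions. The groups there were set by the same rule, so these classes cannot remove its part. In the upper of 3 equal classes of −log10 q, over all 72 h regions outside input, 3.27% of the new regions and 46.2% of those also listed at 0 h were in the 6 h list. In the longest of 3 equal classes of length these shares were 2.19% and 49.2%. The 6 h and 12 h lists share a processing folder that is not that of the 72 h list, so time and folder cannot be told apart here.

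Of the 10 listed at 6 h and 12 h, 3 had the highest fold. At chr16:67619131-67619474 H3K27me3 was 11.4-fold at 6 h and 11.1-fold at 12 h, near the top of those lists (percentiles 97.3 and 97.0), although the nearest 0 h region was 1802 kb away. H3K4me3 there was listed at 6 h (5.04-fold) and 12 h (5.68-fold) only. At chr5:72047618-72048419 (7.10-fold at 72 h), 179 bp from a 0 h region, H3K27me3 was 7.75-fold at 6 h and 5.93-fold at 12 h. The third, chr12:88224117-88224822 (5.71-fold at 72 h), had H3K27me3 of 24.8-fold at 6 h and 26.6-fold at 12 h, above the 99th percentile of both lists (99.4 and 99.6). The same place was among the strongest H3K27ac regions at those times, with 16.1-fold at 6 h and 21.6-fold at 12 h (percentiles 99.1 and 99.8), and was listed for H3K27ac at 0 h (8.59-fold) and 72 h (8.39-fold). It overlaps no input region, and whether copy number or mappability there plays a part was not tested. It was the only new region with H3K27ac at both 0 h and 72 h. The longest new region, chr17:31037785-31039294, was also among the 10, with H3K27me3 of 5.95-fold at 6 h and 6.09-fold at 12 h and H3K4me3 and ATAC in every list of each. The other 2 longest, of 1250 bp on chromosome 18 and 1198 bp at chr2:179836789-179837986, were in no other H3K27me3 list.

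The 3 regions listed after Wnt3a, named here after their values were seen, all had H3K27me3 folds at 72 h below the median of the new regions. They lay at chr13:13875272-13875620, at chr4:146797870-146798199 (4.49-fold, 0.198 kb from an input region) and at chr4:139799965-139800264 (3.98-fold). Their H3K27me3 after Wnt3a was 4.34-, 4.68- and 4.97-fold.

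Ring1b was rare at the new regions. It was listed at 5 of 851 in replicate 1 at 0 h (0.588%) and at 14 in replicate 2 (1.65%), a mean of 1.12% ± 0.748 (SD, n = 2), where 21.7% and 18.1% of all 72 h regions were listed. At 72 h, the time the regions were listed for H3K27me3, Ring1b was at 7 (0.823%), against 6.22% of all 72 h regions and 3.08% of those also listed at 0 h. Of the 196 in the whole list, 124 overlapped input. The difference from 0 h, −0.29 percentage points, lay within the SD of the 0 h replicates. It was −2.39 points when members were chosen without 0 h H3K27me3 replicate 2 and −0.88 points with −log10 q of at least 5. Against replicate 1 at 0 h, 3 new regions had Ring1b before and not after (0.353%, against 15.9% of all 72 h regions) and 5 after and not before (0.588%, against 0.476%). Against replicate 2 these counts were 10 (1.18%, against 12.8%) and 3 (0.353%, against 0.921%). After Wnt3a it was at 29 (3.41%), against 25.8%. Any of the 4 lists of Ring1b held 38 (4.47%), where 29.5% of all 72 h regions and 33.8% of those also listed at 0 h were held. The share at 0 h stayed low in the upper class of −log10 q, at 1.40% and 3.27% of the new regions against 27.7% and 23.2% of those also listed at 0 h. The groups differ by rule in H3K27me3 at 0 h, so this class cannot show how far the rule itself sets the Ring1b shares. The Ring1b list at 72 h was short, with 604 regions against 1605 and 1783 at 0 h. With the Ring1b lists cut to equal length and the 851 regions unchanged, the difference between 72 h and 0 h was 0.59 percentage points, in the other direction. With the H3K27me3 lists cut as well, which gave 1186 new regions, it was 0.46 points.

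The 3 new regions with Ring1b at 72 h and the highest H3K27me3 fold differed in their other marks. At chr6:23198797-23199202 (6.18-fold) Ring1b was also listed in replicate 1 at 0 h and after Wnt3a, H3K4me3 at every time, and the nearest 0 h H3K27me3 region was 392 bp away. At chr16:3271795-3272163 (6.08-fold) nothing but Ring1b at 72 h was listed, and an input region lay 6.01 kb away. At chr16:17209925-17210302 (6.06-fold) Ring1b was also listed in replicate 2 at 0 h, and H3K4me3 and ATAC in every list.

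**Figure D2:**
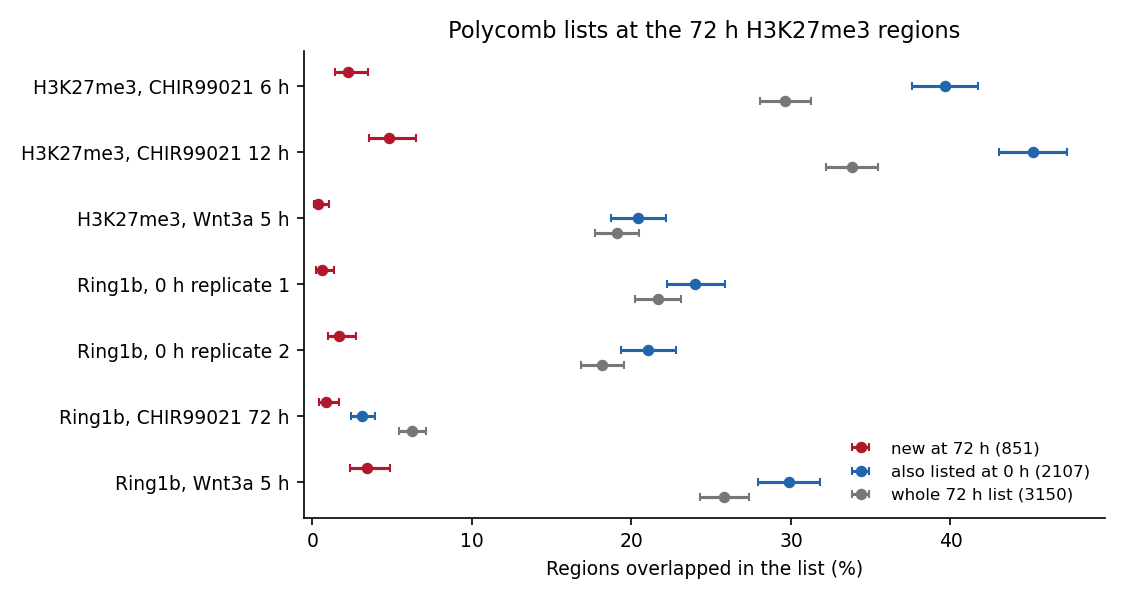
Percentage of the 851 new regions, of the 2107 regions also listed at 0 h and of all 3150 regions of the 72 h H3K27me3 list that overlapped a region in each other H3K27me3 and Ring1b list of Wnt3KO EpiSCs, with 95% Wilson intervals. The new regions lie between 0.353% (H3K27me3 after Wnt3a) and 4.82% (H3K27me3 at 12 h), to the left of the other groups in all 7 lists.

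H3K4me3 was listed at about 1 in 3 new regions before stimulation, and at most of these it was still listed at 72 h. At 0 h 295 of 851 were listed for H3K4me3 (34.7%, against 40.1% of all 72 h regions). The count was 238 at 6 h (28.0%, against 28.7%), 254 at 12 h (29.8%, against 33.0%) and 250 at 72 h (29.4%, against 35.0%). Both 0 h and 72 h held 234, so that 79.3% of those listed at 0 h were listed again, against 79.8% over all 72 h regions, and 189 (22.2%, against 23.5%) were listed at all 4 times. Only the 0 h list of this pair held 61 (7.17%, against 8.10% of all 72 h regions), and only the 72 h list held 16 (1.88%, against 3.02%). Any of the 4 times held 328 (38.5%, against 45.4%). The net difference, −5.29 percentage points (95% interval −7.28 to −3.30), was close to the −5.55 points (−6.98 to −4.12) of the regions also listed at 0 h. With 1 library at each time there is no replicate error.

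The H3K4me3 regions met by new regions stood near the middle of the 0 h H3K4me3 list. Their median percentile by fold was 47.8, against 37.0 for those met by the regions also listed at 0 h, with median lengths of 1421 and 1271 bp, over 295 and 867 overlaps. The summit of the new H3K27me3 region lay a median of 520 bp from the H3K4me3 summit. Where H3K4me3 was listed at 0 h only it had been weaker, with a median percentile of 29.1 against 52.7 where it was listed at both times.

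Among the 61 with H3K4me3 at 0 h only, the highest H3K27me3 folds were at chr8:96335990-96336728, at chr11:35612079-35612402 (7.18-fold), where H3K4me3 was 14.8-fold at 0 h and still listed at 6 h and 12 h, and at chr15:100702707-100703242 (6.95-fold), where it was 34.6-fold at 0 h and listed at 12 h. Among the 16 with H3K4me3 at 72 h only, the highest were at chr10:84216764-84217564 (6.14-fold), chrX:56821526-56821825 (5.75-fold) and chr7:112574588-112575088 (5.73-fold). The H3K4me3 regions of these 3 were weak at 72 h, at 6.20-, 6.98- and 5.70-fold.

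H3K27ac in Wnt3KO cells was listed at few new regions, and nearly all of those that had it at 0 h were without it at 72 h. At 0 h 29 of 851 had it (3.41%, 2.38 to 4.85), where 4.29% of all 72 h regions did. At 6 h 22 did (2.59%, against 2.92%), at 12 h 27 (3.17%, against 3.30%) and at 72 h 4 (0.470%, 0.183 to 1.20, against 3.65%). The whole-list counts, 135 at 0 h and 115 at 72 h, came mostly from the 192 regions that overlap input, of which 96 and 101 had H3K27ac. At 6 h and 12 h, 50 and 52 of the 192 had it, beside 0.949% and 1.19% of the regions also listed at 0 h. Among the 2107 regions also listed at 0 h, 10 (0.475%) had H3K27ac at 0 h and 10 at 72 h. Of these, 3 had it at both times, 7 at 0 h only and 7 at 72 h only, too few for a comparison with the new regions.

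Of the 29 new regions with H3K27ac at 0 h, 28 were without it at 72 h (3.29% of the 851, against 1.68% of all 72 h regions), and 3 had it at 72 h only, against 1.05%. The net difference was −2.94 percentage points (−4.20 to −1.67). The 0 h and 72 h lists of this mark share a processing folder. The size of the difference depended on the processing: it was −1.34 points when an overlap had to cover at least 50% of the smaller region, −1.65 with the H3K27ac lists cut to equal length, −1.10 with the H3K27me3 lists cut as well (1186 new regions), and −4.58 when 1 kb around the H3K27me3 summit was used. The count with H3K27ac before and not after was 15, 17, 18 and 44 under these 4 settings. It was 28 with the new regions within 100 kb of an input region left out.

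The H3K27ac regions at issue were weak ones. Their median percentile by fold in the 0 h H3K27ac list was 23.0 (range 2.61 to 72.1), and 16 of the 29 were in the weakest of 4 equal classes. Those met by the regions also listed at 0 h had a median percentile of 23.2. Over the whole list of 12135 H3K27ac regions at 0 h, 30.4% were absent at 72 h. By class, from weakest to strongest, 60.7%, 40%, 17.6% and 2.84% were absent. At the new regions, 16 of 16 in the weakest class, 10 of 10 in the next and 2 of 3 in the one above it were absent at 72 h.

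At 27 of the 28, H3K4me3 was listed at 0 h, and at 27 at 72 h (against 34.7% and 29.4% of all new regions). ATAC was listed at 25 in unstimulated EpiSCs (against 33.5%) and at 22 at 48 h (against 21.7%). H3K27ac was listed at 10 of the 28 at 6 h (against 2.59%) and at 11 at 12 h (against 3.17%). H3K27me3 was listed at none of them at 6 h, at 12 h or after Wnt3a, against 6.23% of all new regions. In wild-type cells, 9 had H3K27ac at 0 h (against 2.12%). In the replicates at 24 h of CHIR99021, 21 and 18 had it (against 10.5% and 9.99%). The median length of the 28 was 420 bp, and their H3K27me3 fold ran from 4.31 to 7.0. Of them, 15 lay over 100 kb from a 0 h H3K27me3 region, against 38.4% of all new regions.

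The strongest of these 28 by H3K27me3 was chr13:83867184-83867869 (7.0-fold), where H3K27ac was 4.62-fold at 0 h and H3K4me3 15.8-fold at 0 h and 4.52-fold at 72 h. At chr13:84486699-84487022 (6.82-fold) H3K27ac was 5.58-fold at 0 h, H3K4me3 13.5-fold at 0 h and 17.8-fold at 72 h, and Ring1b was listed in replicate 2 at 0 h and after Wnt3a. At chr13:109004863-109005499 (6.46-fold), 2769 kb from a 0 h H3K27me3 region, H3K27ac was 5.93-fold at 0 h and H3K4me3 38.3-fold at 0 h and 34.5-fold at 72 h, and H3K27ac was listed in all 3 wild-type libraries. The 3 with H3K27ac at 72 h only were at chrX:4658675-4659122 (6.46-fold, 5.79 kb from an input region), chr14:65206278-65206577 (5.00-fold) and chr17:34325103-34325497 (4.70-fold).

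Wild-type cells at 24 h gave the opposite direction for H3K27ac. It was listed at 18 new regions at 0 h (2.12%, against 2.29% of all 72 h regions) and at 89 and 85 in the 24 h replicates (10.5% and 9.99%, against 12.5% and 11.5%), a mean of 10.2% ± 0.332 (SD, n = 2). Of the 192 regions that overlap input, 47 had it at 0 h and 109 and 104 at 24 h. Of the regions also listed for H3K27me3 at 0 h, 0.332% had it at 0 h and 9.30% and 8.26% at 24 h, below the new regions in each list. In replicate 1, 77 new regions had it at 24 h only (9.05%, against 10.5% of all 72 h regions) and 6 at 0 h only (0.705%, against 0.254%), and in replicate 2 these counts were 74 (8.70%, against 9.65%) and 7 (0.823%, against 0.413%). The difference of 8.11 percentage points was larger than the spread between the 24 h replicates and close to the 8.45 points of the regions also listed at 0 h. The 24 h lists were longer, with 29056 and 27422 regions against 14453 at 0 h, and came from another processing folder. With these H3K27ac lists cut to equal length and the 851 regions unchanged the difference was 1.88 points, and with the H3K27me3 lists cut as well (1186 new regions) it was 2.07. Genotype, time and list length all differ between this comparison and the one in Wnt3KO cells, so the 2 directions were not tested against each other.

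Open chromatin in EpiSCs was listed at 285 new regions without stimulation (33.5%, against 35.4% of all 72 h regions) and at 185 after 48 h of CHIR99021 (21.7%, against 25.3%). Both lists held 179, which is 62.8% of those open without stimulation, against 65.1% over all 72 h regions. The unstimulated list alone held 106 (12.5%, against 12.3%) and the 48 h list alone 6 (0.705%, against 2.29%). The net difference was −11.8 percentage points (−14.1 to −9.44), beside −10.2 (−11.8 to −8.58) for the regions also listed at 0 h. The 48 h list was the shorter, 38032 against 41309 regions, and came from another processing folder. Among the 106, the highest H3K27me3 folds were at chr8:96335990-96336728, chr11:75468519-75469166 and chr11:66338574-66339144. Of the 6 open at 48 h only, the highest were at chr12:4037229-4038090 (5.86-fold), chr7:106417728-106418356 (5.77-fold) and chrX:56821526-56821825, where the ATAC region was weak (percentiles 4.87, 6.82 and 15.3 of the 48 h list by fold).

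In embryos 38.2% and 41.1% of the new regions were open at E6.0 (against 48.5% and 50.4% of all 72 h regions) and 21.3% and 33.5% at E7.2 (against 29.1% and 43.9%). The means, 39.7% ± 2.08 and 27.4% ± 8.64 (SD, n = 2), differed by −12.3 percentage points, and the groups did not overlap. The exact two-sided permutation test gave p = 0.333, the smallest that 2 libraries against 2 can give. Within the processing folder of the first replicates the difference was −16.9 points and within that of the second −7.64. The posterior part of E7.5 embryos, with 1 library, gave 20.2%, against 28.4%. In the regions also listed at 0 h the difference between E7.2 and E6.0 was −14.8 points. In each of the 5 embryo lists the interval of the share of new regions lay below that of the regions also listed at 0 h, and in both EpiSC lists these intervals overlapped.

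**Figure D3:**
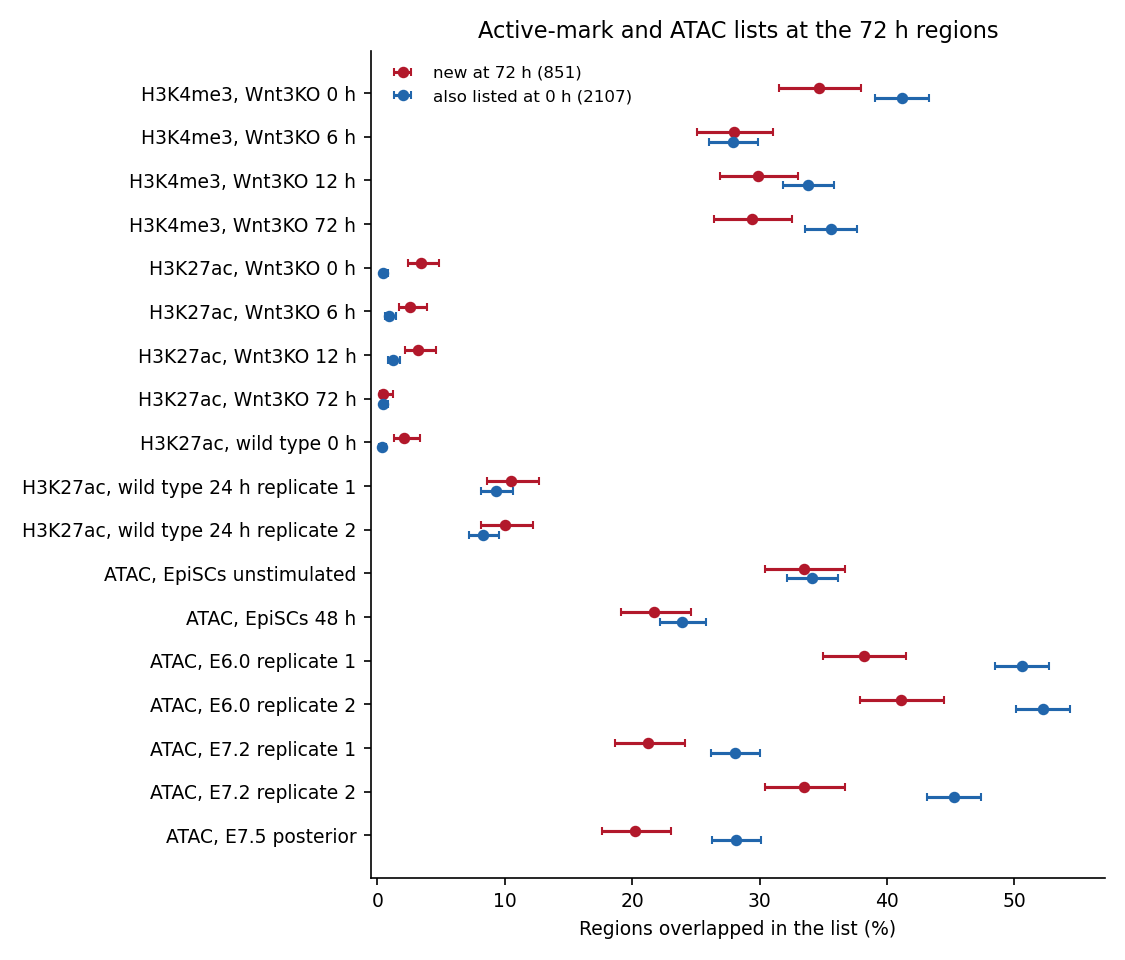
Percentage of the 851 new regions and of the 2107 regions also listed at 0 h that overlapped a region in each H3K4me3, H3K27ac and ATAC-seq list, with 95% Wilson intervals. At the new regions H3K27ac in Wnt3KO cells is at 3.41% at 0 h and 0.470% at 72 h, and ATAC in EpiSCs at 33.5% and 21.7%.

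Over all readouts other than H3K27me3, 473 new regions (55.6%) met at least 1 region, where 68.4% of all 72 h regions and 70.9% of those also listed at 0 h did. Each region was counted in 1 combination, so the following leave out regions that also met Ring1b. The most frequent combinations were H3K4me3 with ATAC at 147 (17.3%, against 15.5% of all 72 h regions), ATAC alone at 124 (14.6%, against 10.7%), H3K4me3 with H3K27ac and ATAC at 99 (11.6%, against 7.75%), and H3K4me3 alone at 46 (5.41%, against 3.52%). The same combinations with Ring1b were at 20 (2.35%, against 10.7%), 3 (0.353%, against 6.51%), 7 (0.823%, against 6.10%) and 2 (0.235%, against 0.698%), in that order. H3K27ac in any list was at 128 (15.0%, against 16.7% of all 72 h regions and 12.1% of those also listed at 0 h). ATAC in any list was at 412 (48.4%, against 58.9% and 61.0%). H3K4me3 and ATAC were both listed in unstimulated cells at 212 (24.9%, against 28.1%). The other 378 (44.4%, against 31.6% of all 72 h regions) met no region of H3K4me3, H3K27ac, Ring1b or ATAC. These 378 had a median length of 342 bp and a median fold of 5.07, and 127 of them lay over 100 kb from any 0 h H3K27me3 region.

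The new regions lay at a wide range of distances from the 0 h H3K27me3 regions. The median distance to the nearest 0 h region of either replicate was 30.3 kb, with 234 (27.5%) within 1 kb, 156 from 1 to 10 kb, 134 from 10 to 100 kb and 327 (38.4%) farther. Of the 234, 215 had a 0 h region on 1 side within 1 kb and 19 on both sides. A 0 h region that was itself listed at 72 h adjoined 110 of them (47.0%). Of all 6664 regions at 0 h, merged over the replicates, 28.4% were listed at 72 h. Median length and fold differed little between the classes, from 352 to 361.5 bp and from 5.12- to 5.39-fold.

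The other Polycomb lists held more of the near regions. H3K27me3 at 6 h, at 12 h or after Wnt3a was listed at 15.4% (11.3 to 20.6) of those within 1 kb and at 3.85%, 2.99% and 2.14% (1.04 to 4.35) in the 3 farther classes in order. Ring1b in any list was at 8.55% within 1 kb and at 4.49%, 0.746% and 3.06% farther out. H3K4me3 at 0 h went the other way, at 27.8% (22.4 to 33.8) within 1 kb, 25% from 1 to 10 kb, 38.1% from 10 to 100 kb and 42.8% (37.6 to 48.2) farther out. ATAC in unstimulated EpiSCs was at 31.6% within 1 kb and 37.3% over 100 kb, with overlapping intervals. With new regions defined as having no 0 h region within 1 kb, 617 were left, of which 1.13% were listed at 6 h and 2.43% at 12 h.

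**Figure D4:**
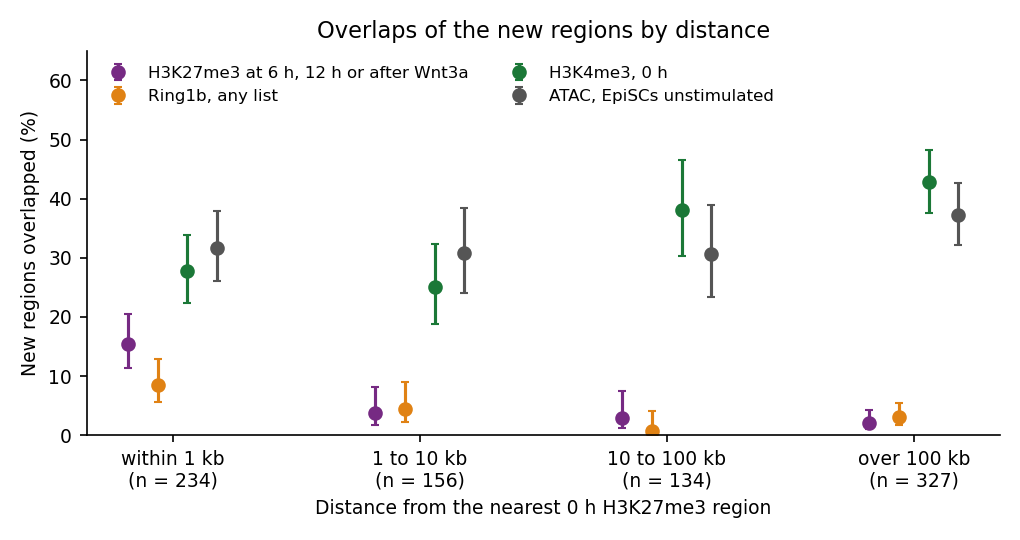
Percentage of the new regions, in 4 classes of distance from the nearest 0 h H3K27me3 region, that overlapped other H3K27me3 lists, any Ring1b list, the H3K4me3 list at 0 h and the ATAC-seq list of unstimulated EpiSCs, with 95% Wilson intervals. H3K27me3 at other times falls from 15.4% within 1 kb to 2.14% over 100 kb, and H3K4me3 at 0 h goes from 27.8% to 42.8%.

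Joined with other new regions less than 10 kb away, the 851 made 701 groups, of which 584 held 1 new region; 72 h regions also listed at 0 h were not counted as neighbours. The largest group held 4, at chr11:75466007-75470898.

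Chromosome X had the highest share of new regions. Of its 55 regions at 72 h, 27 were new (49.1%, 36.4 to 61.9), 12 were also listed at 0 h and 16 overlapped input. On the autosomes the share ran from 18.3% (11.4 to 28.0) on chromosome 18 to 36.7% (30.6 to 43.3) on chromosome 7. X held 3.17% of the new regions, 0.570% of those also listed at 0 h and 1.75% of the whole 72 h list. None of the 27 was in another H3K27me3 list, against 6.23% of all new regions, and 1 (3.70%) had Ring1b, against 4.47%. No other readout was met by 22, against 44.4% of all new regions. Over 100 kb from a 0 h region lay 17 (63.0%), against 38.4%. Within the 27, 1 (3.70%) lay within 100 kb of an input region, against 3.29% of all new regions. The input lists held 9.88% and 7.55% of their own regions on X. Its highest folds, in regions named after their values were seen, were 6.46 at both chrX:4658675-4659122 and chrX:141121528-141121829.

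**Figure D5:**
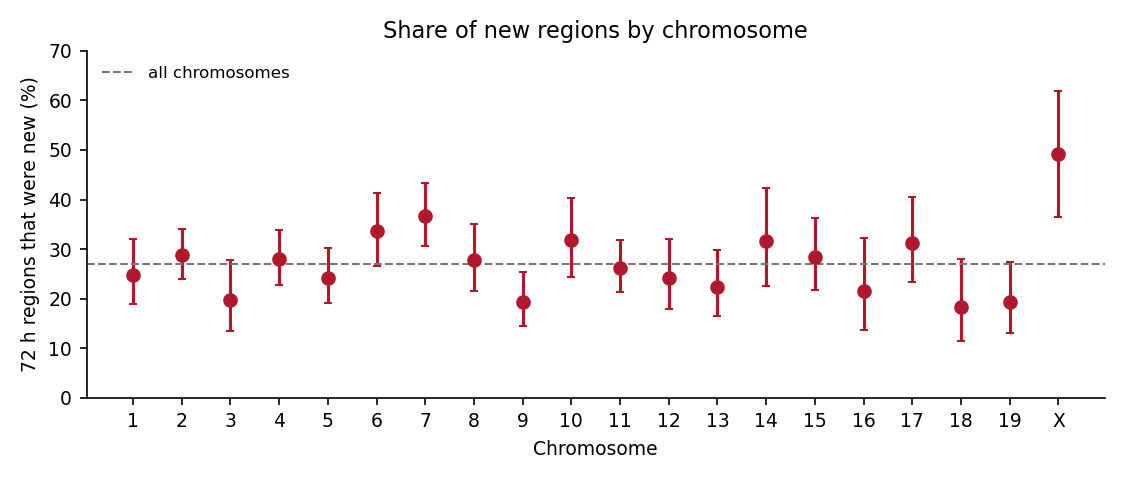
Percentage of the 72 h H3K27me3 regions on each chromosome that were new, with 95% Wilson intervals. The dashed line is the share over all chromosomes, 27%; chromosome X is at 49.1% and the autosomes lie between 18.3% and 36.7%.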

How the data were processed

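Peak lists of 30 libraries (21 ChIP-seq, 2 input, 7 ATAC-seq) of the 57 samples were used. Wild-type H3K4me3 lists (2) were left out because their labels contradict each other, and 25 samples without a peak list were not analysed here. Per the submitters' processing notes, ChIP-seq reads were processed with Bowtie 1.1.0, SAMtools 0.1.19 and MACS2 2.1.0 and ATAC-seq reads with MACS2 2.1.0, cutadapt 1.8.1, SAMtools 0.1.19 and Bowtie2 2.1.0, on mm9. Each deposited list holds the peaks of 1 library. Which library served as background is not stated here. The deposited fold enrichment at the summit is a ratio over local background, and significance is deposited by the authors as −log10 p and −log10 q. Peak names carry a processing folder (7 in all), taken here as a possible batch. The number of reads is unknown.

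Overlaps of at least 1 bp were computed in Python 3.11.15 (numpy 2.4.6, pandas 2.3.3, scipy 1.17.1) after a check on simulated intervals. Shares carry 95% Wilson intervals, and differences of paired shares a 95% normal interval over regions, both covering counting error only. Embryo ATAC-seq, the one comparison with replicates on both sides, had an exact two-sided permutation test. Named regions are the 10 with the highest fold, the 3 longest, the 3 with the highest fold in each overlap class, and the 3 nearest to either side of the rule. Members, lists and classes were chosen with earlier results of these data known. Alternatives were a 50% overlap, −log10 q of at least 5, leaving out replicates, a 1 kb distance, equal list lengths and a 1 kb window around the summit. Leaving out new regions within 100 kb of input, equal lengths of the other lists with the members unchanged, and the replicate block were added after the data were seen.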

Additional observations from a re-analysis of the deposited data

How the results depend on the processing

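Of 113 recomputed values of 12 results, 79 were classed as unchanged and 34 as moved. For the embryo ATAC difference unchanged means the same direction only, with no interval set. For the other results it means within the interval or factor set for them. None changed direction among those with an interval that leaves out 0. Leaving out 1 of the H3K27me3 replicates at 0 h gave 941 to 1380 new regions, 3.08% to 8.48% of them listed at 6 h, 5.42% to 13.2% at 12 h and 0.638% to 1.23% after Wnt3a. Over all omissions of a replicate, the wild-type H3K27ac difference ran from 7.87 to 9.38 percentage points, the Ring1b difference from −2.39 to 0.24 points and the embryo ATAC difference from −18.4 to −6.17. Requiring 50% of the smaller region to be covered, the H3K27ac difference was −1.34 points in Wnt3KO and 4.68 in wild-type cells, the EpiSC ATAC difference −8.94, and 15 new regions had H3K27ac at 0 h and not at 72 h. With −log10 q of at least 5 the median fold was 5.58, the wild-type H3K27ac difference 9.58 points and the share after Wnt3a 0%. With no 0 h region within 1 kb, 1.13% were listed at 6 h and 2.43% at 12 h, and the wild-type H3K27ac difference was 9.0 points. With the lists of each readout cut to equal length and the members unchanged, an alternative chosen after seeing the data, 0.705% were listed at 6 h and 1.06% at 12 h, the H3K27ac difference was −1.65 points in Wnt3KO and 1.88 in wild-type cells, Ring1b 0.59, and 17 regions had H3K27ac before and not after. With the 0 h and 72 h H3K27me3 lists cut as well, which gave 1186 new regions, 2.61% were listed at 12 h, the H3K27ac difference was −1.10 points in Wnt3KO and 2.07 in wild-type cells, ATAC −9.36, Ring1b 0.46, and 18 regions had H3K27ac before and not after. With 1 kb around the summit, 3.53% were listed at 6 h and 7.05% at 12 h, the H3K27ac differences were −4.58 and 14.2 points, and 44 regions had H3K27ac before and not after. The cause was not tested for any of these shifts.

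With the replicate block, E7.2 minus E6.0 within each replicate number, the mean embryo ATAC difference is −12.3 points by construction and is no separate check. The exact p for this block is 0.5, the smallest that 2 pairs allow. No paired analysis was possible for the other results because they have 1 library on at least 1 side. Peak lists give no read depth, so a weak mark and an absent one could not be told apart at any region, and with 1 library at 72 h the count of new regions has no replicate error.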
